A study of Homo sapiens with 4 samples.

Results

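MADE1 elements are short palindromic DNA transposons related to mariner, and a transcript that runs through a copy folds back on itself into a hairpin. Drosha and Dicer can cut such hairpins, which gives the primate-specific miR-548 family and the related miR-570, miR-579 and miR-603. The family is spread over many chromosomes, often within introns of host genes, and its mature strands are rich in A and U.

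The family was taken from the assay names of a quantitative PCR panel: miR-548 with any letter, and miR-570, miR-579 and miR-603, with any arm suffix. This gave 15 of 740 miRNA wells, with 12 miR-548 assays and 3 relatives, 3 of them on panel I and 12 on panel II. As a group it was chosen by names and selected on measured values as well, since very early readings and the largest ratios of some members, in both pairs of samples, were known beforehand. The Ct values and ratios below are therefore descriptions without a test.

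Each of the 4 groups was a single RNA sample of U2OS cells, which were derived from a human osteosarcoma. The group shNS was infected with lentivirus for a control short hairpin RNA and shDDX1 with lentivirus for a hairpin against DDX1, a DEAD-box RNA helicase, both under puromycin at 2 µg/ml. The untreated group was set against cells given neocarzinostatin (NCS), an enediyne antibiotic that breaks DNA, for 6 h at 500 ng/ml. The labels name no virus for that pair. The study's title concerns primary miRNAs whose processing DDX1 promotes, and the labels add a comparison with NCS. DDX1 mRNA and cell type markers were not measured on the panels, so neither the knockdown nor the cell line was checked here.

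Each value is a quantification cycle (Ct), the cycle at which the signal of 1 well crosses a threshold, so an early Ct means more product. Wells of the infected pair crossed earlier than wells of the NCS pair, with mean Ct of 25.8 to 26.1 and of 29.4 to 30.1 over the wells under 35 everywhere. Ratios were therefore taken only within a pair, after centring each sample on that mean, and with 1 cycle counted as 1 doubling. Between 521 and 732 of the 740 miRNA wells were under 35. Assays repeated on both panels gave an SD of the log2 ratio of 0.38 for the knockdown pair and 0.79 for the NCS pair, from 7 assays. The SD compares uncentred wells across the panels, so it also holds the shift between panels. It holds no biological spread.

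RefSeq mature sequences (GRCh38.p14) were found for 10 of the 15 assays, of 21 to 23 bases. Those of the members that moved most, or that share an end with them, are shown 5′ to 3′ with the seed, bases 2 to 8, in capitals. For miR-570, miR-579 and miR-548o the 3p arm, and for miR-548j the 5p arm, was taken as the strand that the older name stands for.
miR-570: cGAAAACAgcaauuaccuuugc
miR-548c-3p: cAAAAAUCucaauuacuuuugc
miR-603: cACACACUgcaauuacuuuugc
miR-548o: cCAAAACUgcaguuacuuuugc
miR-548b-3p: cAAGAACCucaguugcuuuugu
miR-579: uUCAUUUGguauaaaccgcgauu
miR-548j: aAAAGUAAuugcggucuuuggu
miR-548k: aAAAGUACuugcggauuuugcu
miR-548l: aAAAGUAUuugcggguuuuguc

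The 10 sequences carried 10 different seeds, so no pair of these members shares bases 2 to 8. The seeds of the 5 assays without a sequence were not compared. miR-548j, miR-548k and miR-548l were identical over their first 7 bases. Some 3p strands were alike at the other end: miR-548c-3p and miR-603 shared their last 13 bases, and miR-548o its last 10 with both. miR-548b-3p and miR-579 shared no more than 2 last bases with any other member. GC content ran from 27.3% to 40.9% with a median of 36.4%, against a median of 50.0% over the 243 panel assays with a sequence. These had names that matched RefSeq as written, or with the arm added for miR-570, miR-579, miR-548j and miR-548o. Assays outside the family whose older name needed an arm were left out.

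Hairpins of 3 members were picked from the RefSeq table to show the palindrome. They are given with the annotated mature strands in capitals, for miR-570 and miR-579 because their ratios were among the largest, and for miR-548m as a near-perfect repeat.
MIR570, chr3:195699401-195699497, plus strand: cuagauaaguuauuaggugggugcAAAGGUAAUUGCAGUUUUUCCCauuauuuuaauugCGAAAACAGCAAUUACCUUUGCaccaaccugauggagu
MIR579, chr5:32394378-32394475, minus strand: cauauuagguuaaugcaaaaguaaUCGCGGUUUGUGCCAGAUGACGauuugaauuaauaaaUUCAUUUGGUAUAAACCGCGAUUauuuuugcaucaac
MIR548M, chrX:95063141-95063226, minus strand: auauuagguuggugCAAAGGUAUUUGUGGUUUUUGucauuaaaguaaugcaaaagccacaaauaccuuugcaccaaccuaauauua

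Predicted minimum-energy folds paired 76.3% of the 97 bases of MIR570, 81.6% of the 98 of MIR579 and 93% of the 86 of MIR548M. The 15 assays trace to 25 gene copies in RefSeq, and 10 of the assays to 1 copy each, with miR-548h at 5 and miR-548i at 4. Of the 25 copies, 16 overlapped another gene. Where the strand of both the miRNA and a protein-coding host was listed, 8 of 9 copies lay on the host's strand: MIR548B in FAM184A, MIR548C in RASSF3, MIR548J in TPST2, MIR548K in PPFIA1, MIR548L in MRE11, MIR548O2 in RALGAPB, MIR579 in ZFR and MIR603 in KIAA1217. MRE11 encodes a nuclease that processes DNA double-strand breaks. MIR548O lay opposite to PRKRIP1.

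The family's median Ct was later than that of all miRNA wells in the infected pair, earlier in untreated cells and about equal after NCS. In shNS 15 of 15 assays gave a Ct, with a median of 28.3 against 27.5 over all miRNA wells, and in shDDX1 the medians were 29.1 and 27.9. Without NCS 13 of 15 gave a Ct, with medians of 31.1 and 31.8, and after NCS 14 of 15, with medians of 31.3 and 31.3. On panel II alone the family median was 28.6 with shNS and 28.8 with shDDX1, against 28.7 and 28.6 for all its miRNA wells. It was 31.1 without NCS and 31.4 with it, against 32.2 and 32.4. The family median was thus beside that of its panel in the infected pair and earlier in the NCS pair.

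Water wells bear on how these values are read. The earliest water well had a Ct of 26.6 in shNS and 26.5 in shDDX1, and 11 of the 15 family wells read later than that in each of these samples. The same held for 61.0% (shNS) and 65.4% (shDDX1) of all miRNA wells that gave a Ct. No water well gave a Ct in untreated or NCS-treated cells, of 9 per sample.

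**Figure D1:**
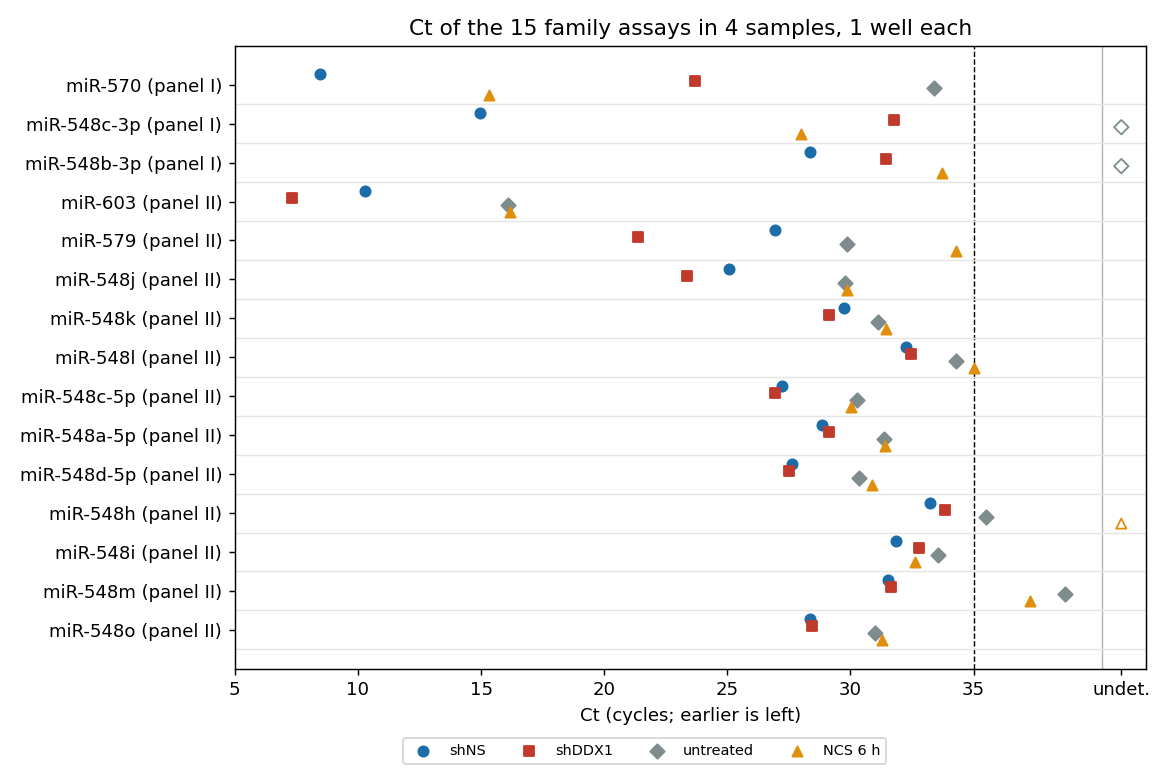
Ct of each family assay (rows, with its panel) in shNS, shDDX1, untreated and NCS-treated cells, 1 well per point, with open symbols at the right for undetermined wells and a dashed line at Ct 35. miR-570, miR-548c-3p, miR-603 and miR-579 spread over many cycles between samples, while the other panel II assays mostly read earlier in the infected pair.

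A few wells stood far from this pattern. For shNS 32 miRNA wells read under Ct 20, for shDDX1 23, for untreated cells 2 and after NCS 4, and the family held 3, 1, 1 and 2 of these. Ct under 15 was read in 5 wells in shNS, of which 3 belonged to the family, and in 2 in shDDX1, of which 1 did.

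miR-603, which has been reported to repress the DNA repair enzyme MGMT, was early in all 4 samples. Its Ct was 10.3 for shNS, 7.33 for shDDX1, 16.1 for untreated cells and 16.2 after NCS, at ranks 4, 1, 2 and 3 from the earliest miRNA well. miR-21, among the most abundant miRNAs of cultured cells, read 16.6, 17.2, 23.4 and 19.7, and the earliest U6 well 14.5, 14.2, 23.4 and 23.5. The miR-603 well was thus ahead of U6 small nuclear RNA in every sample. The 4 wells that touch it on the plate read from 30.4 to about Ct 35 in shNS and from 30.2 to 34.0 in shDDX1. The only other miRNA well under Ct 15 in both of these samples was miR-188-3p, at 7.14 and 7.64.

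miR-570, which has been reported to target the immune checkpoint ligand CD274, was early in some samples and not in others. Its Ct was 8.45 for shNS, 23.7 for shDDX1, 33.4 for untreated cells and 15.3 after NCS. The ranks were 3, 113, 428 and 2, so the same well was among the earliest miRNA wells in shNS and NCS-treated cells and late in untreated cells. Its 4 touching wells read 22.3 to 27.4 in shNS and 26.9 to 30.7 after NCS, and none of them was early.

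miR-548c-3p, cut from the 3p arm of a hairpin within RASSF3, read Ct 14.9 for shNS, 31.8 for shDDX1, undetermined for untreated cells and 27.99 after NCS. It was early in shNS alone, at rank 5. Its touching wells read 23.8 to 29.0 in shNS.

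The opposite arm of that hairpin, miR-548c-5p, was steady: Ct 27.2 for shNS, 26.9 for shDDX1, 30.3 for untreated cells and 30.01 after NCS. The 3p arm came 12.3 cycles before the 5p arm in shNS and 4.88 cycles after it in shDDX1, and 2.02 cycles before it after NCS. The arms lie on different panels, and each was read in 1 well. By name both come from the same precursor. Between shNS and shDDX1 their distance changed by far more cycles than the 5p well itself moved. In untreated cells no distance could be taken, since the 3p well was undetermined. The distances are of uncentred Ct, and why they changed was not tested. No sequence was found for miR-548c-5p, so whether its assay reads this hairpin alone was not checked.

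**Figure D2:**
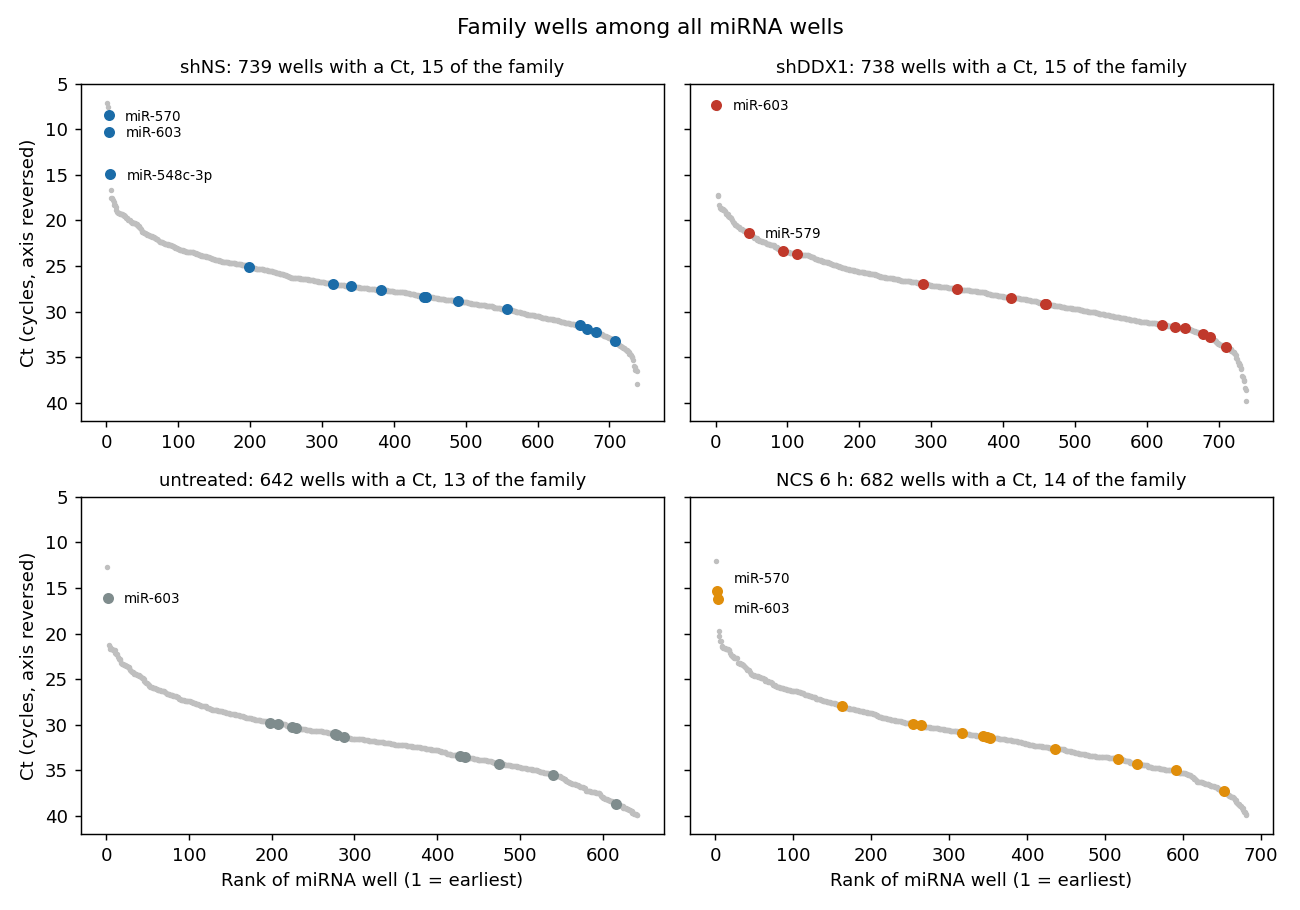
Ct of all miRNA wells with a Ct, ranked from the earliest, in each of the 4 samples (axis reversed, in cycles), with family wells in colour and those under Ct 22 named. miR-603 stands above the curve in every sample, miR-570 in shNS and NCS-treated cells and miR-548c-3p in shNS.

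The early members shared a stretch of sequence, which was picked with their early readings known. In miR-570, miR-548c-3p and miR-603 the bases CAAUUAC stand at positions 10 to 16, capitalised here.
miR-570: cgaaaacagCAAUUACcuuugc
miR-548c-3p: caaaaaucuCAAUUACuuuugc
miR-603: cacacacugCAAUUACuuuugc

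These were the 3 members under Ct 20 in any sample, and they were the 3 of 10 members with a sequence that hold CAAUUAC, read on the strand of the miRNA. They were also the 3 of the 243 panel assays with a matched sequence that hold it, of 737 different miRNA assays. The others were not searched. An older name was matched by adding an arm only for miR-570, miR-579, miR-548j and miR-548o, and for no assay outside the family. The early wells outside the family were not seen to hold it: miR-188-3p, early in all samples, has a sequence without these letters, and miR-875-5p, at Ct 7.61 in shNS, had no sequence by name to search. Of the 2370 mature miRNA names in RefSeq, 10, or 0.422%, hold these letters. Of these 10, 9 are among the 68 names of the family, so few assays outside the family could have held the stretch. The stretch was picked after the Ct values were seen, so its match with the early wells is a description and no test. For 5 members there was no sequence to search, and the primers of the assays are not analysed here. miR-548o, whose last 10 bases are those of miR-603, does not hold CAAUUAC and had Ct 28.3, 28.5, 31.0 and 31.3.

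The knockdown pair could be compared for all 15 assays, each under Ct 35 in both samples. At 2-fold, 3 were lower in shDDX1 and 3 higher, beside a background of 17.3% lower and 11.0% higher among the 716 miRNAs quantified. The family's median log2 ratio was 0.19, and that of all these miRNAs 0.04. The 3 lower assays were the 3 family assays of panel I, where 29.0% of miRNAs were lower and 2.73% higher. The 3 higher assays were on panel II, where 19.8% were higher and 5.10% lower. For these 6 assays the direction followed the panel, and its part in the ratios was not tested.

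Lower in shDDX1 were miR-548c-3p, miR-570 and miR-548b-3p. miR-548c-3p had a log2 ratio of -16.55 and miR-570 one of -14.93, and both rest on the early shNS readings. Outside the family, miR-875-5p on panel II went from Ct 7.61 to 27.4, at a log2 ratio of -19.48, lower than either. The assays touching miR-570 had ratios of -1.17 to -0.42 and those touching miR-548c-3p of -4.35 to -0.43. Both members sit in column 16 of panel I, in wells D16 and J16. That column was singled out with the position of both members known. Of its 14 quantified wells 4 had a log2 ratio of -4 or below, miR-572 and miR-488 beside these 2. So did 2 of 352 wells in the other columns, miR-329 and miR-369-5p. Without the family the counts were 2 of 12 wells in column 16 and 2 of 351 in the others. The column's median was -0.77, and -0.65 without the family, against -0.39 in the other columns. In the NCS pair 1 of 8 wells of column 16 outside the family had a log2 ratio of 4 or above, against 14 of 244 elsewhere. The part of the plate position in these ratios was not tested.

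miR-548b-3p read Ct 28.4 in shNS and 31.4 in shDDX1 and was 6.81-fold lower, at a log2 ratio of -2.77. Its readings were later than the earliest panel I water well, at 27.8 in shNS and 27.3 in shDDX1. Centred within its panel it was 5.08-fold lower. With the median of its neighbourhood, up to 2 rows and 2 columns away, subtracted, its log2 ratio was -0.97, just short of 2-fold.

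**Figure D3:**
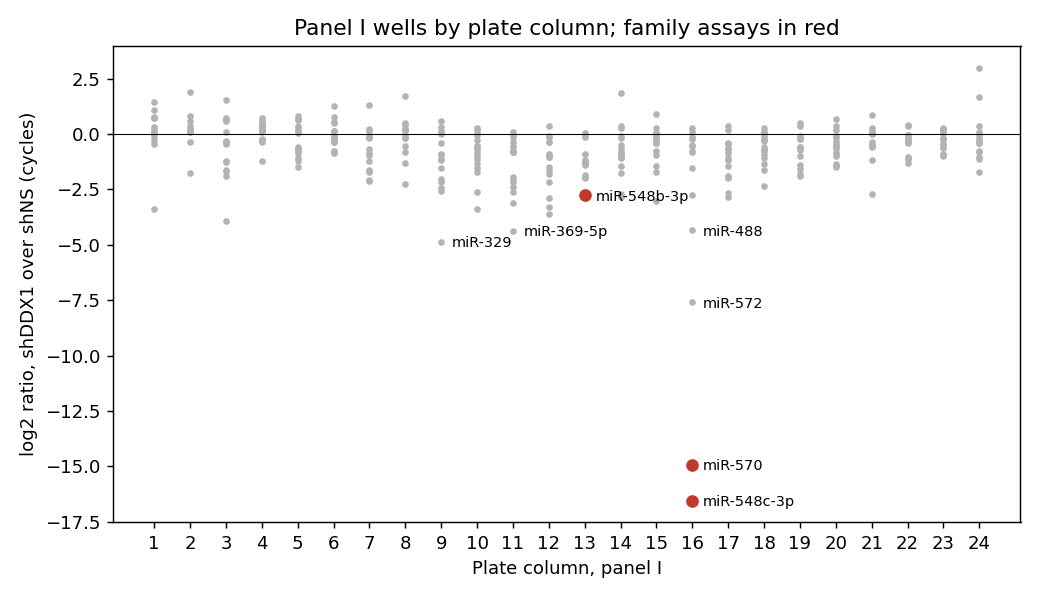
Log2 ratio of shDDX1 over shNS, in cycles, of every quantified miRNA well of panel I by plate column, with the 3 family assays in red and wells at -4 or below named. miR-570 and miR-548c-3p lie lowest, in column 16, which also holds miR-572 and miR-488 at -4 or below, as miR-329 and miR-369-5p are in other columns.

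Higher in shDDX1 were miR-579, miR-603 and miR-548j. miR-579, which lies in the gene of the RNA-binding protein ZFR and has been reported to target BRAF, read Ct 26.9 in shNS and 21.4 in shDDX1. It was 58.3-fold higher, at a log2 ratio of 5.87, while the 4 wells touching it had ratios of 0.29 to 1.23. Its rank rose from 315 to 46 among the miRNA wells, and its log2 ratio was 5.43 when each panel was centred separately.

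miR-603 was 9.66-fold higher, at 3.27, on top of readings that were among the earliest in both samples. Its touching wells, all late, had ratios from 0.26 to 3.01. miR-548j, from the 5p arm of a hairpin in TPST2, read Ct 25.1 in shNS and 23.3 in shDDX1 and was 4.05-fold higher, and its log2 ratio of 2.02 became 1.58 when panels were centred one by one. Its touching wells had ratios from -0.22 to 0.65.

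Among the members with a sequence, miR-548k and miR-548l had the same first 7 bases as miR-548j, and both were within 2-fold. The 5 members without a sequence could not be compared in this way. miR-548k, from a hairpin in PPFIA1 and reported as an oncogenic miRNA of oesophageal cancer, read 29.7 and 29.1, with a log2 ratio of 0.92. miR-548l, from the MRE11 locus, read 32.2 and 32.5, with a ratio of 0.09. The distance between miR-548j and miR-548k was 1.09 cycles, and that between miR-548j and miR-548l 1.93. The SD of 0.38 for a single ratio also holds the shift between panels, while these 3 wells share panel II.

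The other 7 assays, all on panel II, stayed within 2-fold, from -0.61 for miR-548i to 0.61 for miR-548c-5p. Between them lay miR-548h at -0.32, miR-548a-5p at 0.04, miR-548m and miR-548o at 0.19 each and miR-548d-5p at 0.42. The 3 assays named 5p were within 0.04 to 0.61. All panel II miRNAs had a median of 0.46, and each of these 7 except miR-548c-5p lay below it. With each panel centred separately miR-548i was at -1.04, past 2-fold, and the family had 4 lower and 3 higher assays, beside 15.6% and 7.82% of all miRNAs.

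**Figure D4:**
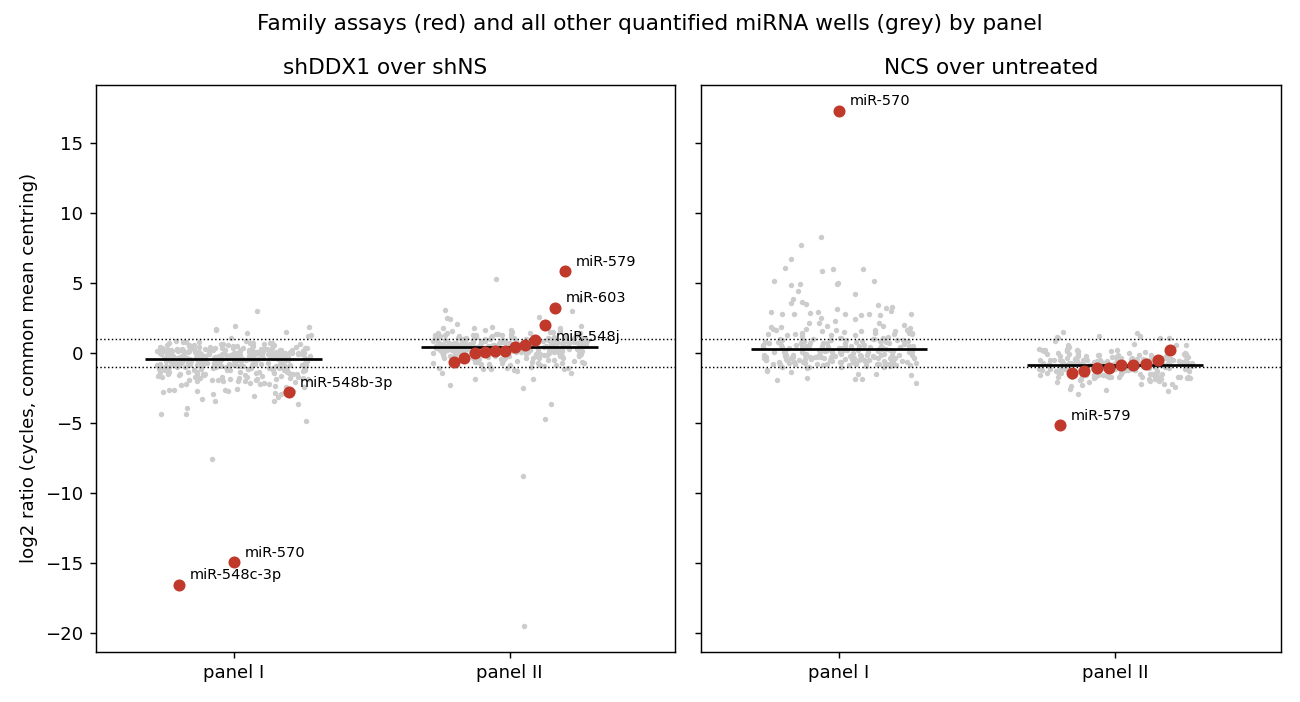
Log2 ratios (cycles, centred on the common mean) of family assays (red) and all other quantified miRNA wells (grey, spread sideways) by panel, for shDDX1 over shNS and NCS over untreated, with a black line at each panel's median and dotted lines at 2-fold. Apart from the named assays, the family lies within the cloud of its panel.

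In the NCS pair 11 of the 15 assays were under Ct 35 in both samples. Of these 5 were at least 2-fold lower after NCS and 1 higher, beside a background of 22.3% lower and 16.9% higher among 498 miRNAs. The family's median log2 ratio was -0.86, and that of all 498 was -0.38. The 5 lower assays were among the 10 quantified on panel II, where 39.9% of miRNAs were lower, 3.23% were higher and the median was -0.84. The family's panel II median was -0.94, close to the panel's, and its count of lower assays is no result about the family.

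The single higher assay was miR-570, with a log2 ratio of 17.34 from Ct 33.4 to 15.3. Its touching wells had ratios of 0.00 to 1.65. On panel I, 30.4% of miRNAs were higher and 4.74% lower after NCS. miR-570 was thus lower in shDDX1 than in shNS and higher after NCS than in untreated cells, and each of its large ratios rests on 1 early well.

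miR-579 went the other way, from Ct 29.9 in untreated to 34.3 in NCS-treated cells. Its log2 ratio was -5.13, and -4.30 when panels were centred one by one, while its touching wells had ratios of -1.55 to 1.46. Its Ct after NCS is close to the limit of 35. Within each pair, miR-579 was thus higher in shDDX1 than in shNS and lower after NCS than in untreated cells. The pairs were not compared with each other.

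The remaining lower assays were close to the threshold. miR-548l was at -1.43, with its Ct after NCS just under 35, miR-548d-5p at -1.28, miR-548k at -1.05 and miR-548o at -1.02. When each panel was centred separately these 4 lay between -0.60 and -0.19, and miR-579 was the only family assay at least 2-fold lower. Over all miRNAs that centring gave 20.5% lower and 13.7% higher, and on panel II 7.26% and 9.27%.

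The quantified assays within 2-fold were miR-548j at -0.86, miR-603 at -0.83, miR-548a-5p at -0.76, miR-548c-5p at -0.48 and miR-548i at 0.23. miR-548j read Ct 29.76 in untreated cells and 29.88 after NCS. With each panel centred separately miR-603 stood at -0.01 and miR-548j at -0.03, and miR-548i at 1.05. For miR-603 and miR-548j, which were higher in shDDX1, the NCS pair thus showed a ratio close to the panel's own shift. The SD of 0.79 is a wide yardstick here, since it also holds the shift between panels.

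The last 4 assays were not quantified in the NCS pair. miR-548c-3p went from undetermined to Ct 27.99, at least 77.4-fold higher against the limit of 35, or 44.4-fold with each panel centred separately. The 4 wells touching it also read earlier after NCS: miR-152 went from 29.4 to 25.9, miR-598 from 36.8 to 30.7, and miR-488 and miR-499-5p from undetermined to 29.8 and 34.3. miR-548b-3p went from undetermined to 33.7, which sets no direction: the bound changes sides when each panel is centred separately. miR-548h went from 35.5 to undetermined, and miR-548m read 38.7 and 37.3, past the limit in both samples.

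**Figure D5:**
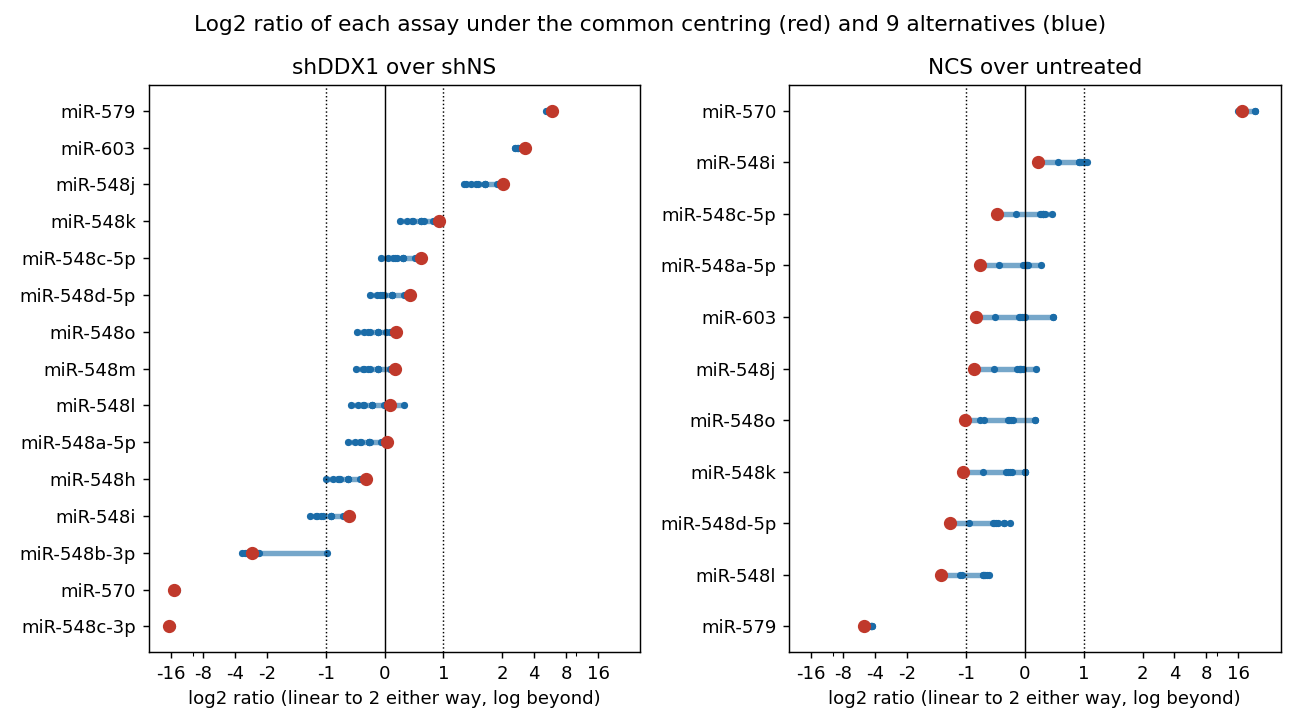
Log2 ratio of every quantified family assay under the common centring (red) and 9 alternatives in scaling or source table (blue), with dotted lines at 2-fold and an axis that is linear to 2 on either side and logarithmic beyond. miR-570, miR-548c-3p, miR-579, miR-603 and miR-548j keep their side of 2-fold in the knockdown pair under all 9, and miR-570 and miR-579 in the NCS pair.

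Over the common centring and 9 alternatives, 9 of 15 assays kept their sign after knockdown, and 5 of 11 after NCS. In the knockdown pair these were the 6 assays past 2-fold, miR-548k above 0, and miR-548h and miR-548i below 0. In the NCS pair they were miR-570 and miR-548i above 0, and miR-579, miR-548l and miR-548d-5p below 0. All alternatives rest on the same single wells, so they do not check the early readings. In the knockdown pair both deposited tables nearly repeat the ratios without centring, at -15.24 for miR-570 in each.

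miRNAs reported to derive from other transposable elements, such as LINE-2, MIR and other DNA transposons, were set beside the family. Of their 32 wells on the panels, 30 were quantified in the knockdown pair, with 2 lower, 1 higher and a median of 0.25, and ratios ran from -1.55 to 1.22. In the NCS pair 22 were quantified, with 4 lower, 1 higher and a median of -0.33, from -1.66 to 2.72. With each panel centred separately the counts were 3 lower and 2 higher after knockdown, with a median of 0.13, and 8 lower and 1 higher after NCS, with a median of -0.68. Beside them stand 17.3% lower and 11.0% higher of all miRNAs after knockdown and 22.3% and 16.9% after NCS, or 15.6%, 7.82%, 20.5% and 13.7% with each panel centred separately. This list lay mostly on panel I, with 17 of 30 wells after knockdown and 14 of 22 after NCS. The family lay mostly on panel II, so the pooled medians also hold the mix of panels. On panel II alone the median was 0.46 for the list and 0.31 for the family after knockdown, and -0.94 for both after NCS. Centred by panel, the NCS median on panel II was -0.11 for both, and the 8 lower list wells were all on panel I.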

How the data were processed

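Mature miRNA of 4 U2OS samples, 1 per group, was measured by SYBR Green PCR on an Exiqon set of 2 panels of 384 wells after Trizol extraction, per the labels. Instrument, threshold and baseline: not given in the sources used here. Deposited by the authors were 3 tables: Ct per well, shifted Ct, and a linear fold, which is a ratio of each sample over its control, where 2 columns, for the controls themselves, were not used. Analysis started from Ct. From each sample the mean Ct was subtracted over the 499 miRNA wells (67.4%) under 35 in all 4 samples, and a log2 ratio is the difference of centred values. Assays at Ct 35 or later in either sample of a pair were not quantified. A ratio of at least 2-fold was counted, and with no replicates no p-value was computed. The centring was tested on simulated data with an offset common to both panels, which does not cover shifts between panels or very early wells. The motif CAAUUAC was picked after sequences and values were seen. Wells touching a member share a side with it. Folds were predicted with RNAfold 2.7.2, and sequences come from RefSeq (GRCh38.p14), where 5 of 15 assays had none by name. Python 3.11.15 and pandas 2.3.3 were used.

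The members, the transposon list and the settings were chosen with earlier results of these data known. All members were accounted for. Ct in all samples was given for members with Ct under 20, a log2 ratio of at least 2 in size, a Ct under 35 in 1 sample of a pair only, the extremes of each pair and both arms of a hairpin. Alternatives covered centring, plate calibrators, neighbouring wells, the authors' tables, Ct limits, fold thresholds and membership.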

Additional observations from a re-analysis of the deposited data

How the results depend on the processing

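No paired analysis was possible because groups hold 1 sample each. The median ratio of the knockdown pair, 0.19, was -0.48 against small RNAs, -0.28 against reference miRNAs, -0.25 with each panel centred separately and -0.36 with plate calibrators. Its 3 lower assays were 1 without members under Ct 20, and its 3 higher were 5 at 1.5-fold and 1 among miR-548 assays only. The 5 lower assays after NCS were 1 against small RNAs, without centring, centred per panel, with plate calibrators, in both of the authors' deposited tables and at 4-fold, 2 against reference miRNAs and after subtraction of neighbouring wells, 3 under Ct 32 and 8 at 1.5-fold. The 1 higher was 2 against small RNAs and per panel, and 0 under Ct 32, without members under Ct 20 and among miR-548 assays only. The NCS median, -0.86, was -0.031 per panel, 0.00013 after subtraction of neighbours and 0.039 in both deposited tables, and also -0.07 against small RNAs, -0.12 without centring, -0.10 with plate calibrators and -0.52 against reference miRNAs. After NCS, miR-548k turned to 0.00013 after subtraction of neighbours and 0.0079 in both deposited tables, where miR-548o was 0.17, miR-603 0.49, miR-548c-5p 0.32 and miR-548a-5p 0.04. After subtraction of neighbours miR-548j was 0.19, miR-548c-5p 0.47 and miR-548a-5p 0.27. Median centring, centring without the family, Ct under 37 and no Ct limit moved no count by over 1.5 times. Signal over water limits the late members.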

Other observations

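The authors' deposited tables give other values for some members in the NCS pair than the Ct table. In the knockdown pair the shifted Ct of each family assay differed from its Ct by -0.789 (panel I) or 0.789 (panel II), as for most wells. In the NCS pair the median shift over panel II miRNAs was -0.587 without and -0.638 with NCS. The percentiles 5 and 95 were -2.81 and -0.28 without NCS, and -2.34 and -0.36 with it. miR-603 was shifted by -6.89 and -7.48, to 9.20 and 8.71 in the authors' deposited table. These were the most extreme shifts of panel II in both samples.

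On panel I the median shift after NCS was -3.58. miR-570 was shifted by -9.27 there and by -4.16 in untreated cells, to 6.03 and 29.2, and the authors' deposited fold is 9544682, or a log2 ratio of 23.19. miR-548c-3p was shifted by -11.17 after NCS, to 16.8, the most extreme of panel I in that sample, while its deposited value in untreated cells is missing. The authors' deposited fold of 8.6e-06 for miR-548c-3p, below 1, therefore has no control value behind it. The Ct table has 27.99 for that well. How the shifted values were made is not given in the sources used here.

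miR-548b-3p and miR-548h, undetermined in 1 sample of the Ct table, have shifted values of 36.5 (untreated) and 37.4 (after NCS) in the authors' deposited table. The deposited fold of miR-548b-3p is 91.8 and that of miR-548h 0.164. Undetermined miRNA wells with a deposited value numbered 49 and 26 (panels I and II) without NCS, and 24 and 26 after it.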
